A study of Mus musculus with 2 samples.

Results

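The genes described here are 33 genes of microglia, the resident macrophages of the nervous tissue, and of border macrophages, the macrophages of the meninges and perivascular spaces. They were named by symbol, as genes known from these cells, and looked up by gene identifier. All 33 were found among the 43346 mouse genes of the tables. Total RNA was sequenced from the neural tube of B6NCrl mouse embryos at embryonic day 13.5, from healthy pools of males and females, with 10 ng of RNA and added spike-in RNA per library. The series holds 2 libraries, labelled as biological replicates 1 and 2 of 1 group, so no condition could be compared. Total estimated reads were 34125110 in replicate 1 and 22311849 in replicate 2. The labelled tissue was checked by markers of neural progenitors and neurons, and Sox2 had 14.8 and 14.35 TPM and Tubb3 1245 and 1175 TPM. Nothing in the labels says which animals went into each pool, and the spread between the libraries may be partly technical. In this bulk tissue, few cells of a type and little RNA per cell cannot be told apart.

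Microglia descend from yolk sac macrophages that enter the neural tube in mid-gestation, while border macrophages of the same origin settle in its coverings. Both need the receptor Csf1r, whose ligands are Csf1 and Il34, and the transcription factor PU.1, the product of Spi1. They signal through small adaptor proteins with an ITAM, a tyrosine motif that recruits kinases, and they clear dying cells and debris with complement, Fc receptors and lysosomal proteases. Resident microglia in the parenchyma are known for P2ry12, Tmem119, Sall1, Siglech and Cx3cr1, and border macrophages for Mrc1, Cd163, Lyve1, Pf4 and F13a1.

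Of the 33 genes, 28 reached 1 TPM (the deposited transcript level, corrected for length and scaled to a fixed total) in both libraries, and the same number did in each library alone. Among protein-coding genes, 61.8% reached that level in both libraries. The 5 genes below it were Ptprc, Itgam, Mpeg1, Cd14 and Cd163. From posterior-mean TPM, another deposited estimate, Ptprc had 1.48 and 1.65 TPM and Itgam 1.39 and 1.61 TPM in replicates 1 and 2. By that estimate 30 genes were detected. The median level of the 33 genes came to 7.43 and 8.66 TPM in replicates 1 and 2, against 4.77 TPM and 5.12 TPM for protein-coding genes. Together the 33 genes held 517 TPM in replicate 1 and 513 TPM in replicate 2, or 515 ± 2.55 TPM (SD, n = 2). Of this, the broadly expressed protease genes Ctsb and Lgmn held 34.8% in replicate 1 and 35.2% in replicate 2. With the genes ordered by mean level, the ranges of the libraries did not overlap in 16 of the 32 neighbouring pairs and overlapped in 16. These ranges leave out counting error, and the same share over other genes was not computed. The order of neighbours was therefore not taken as resolved.

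**Figure D1:**
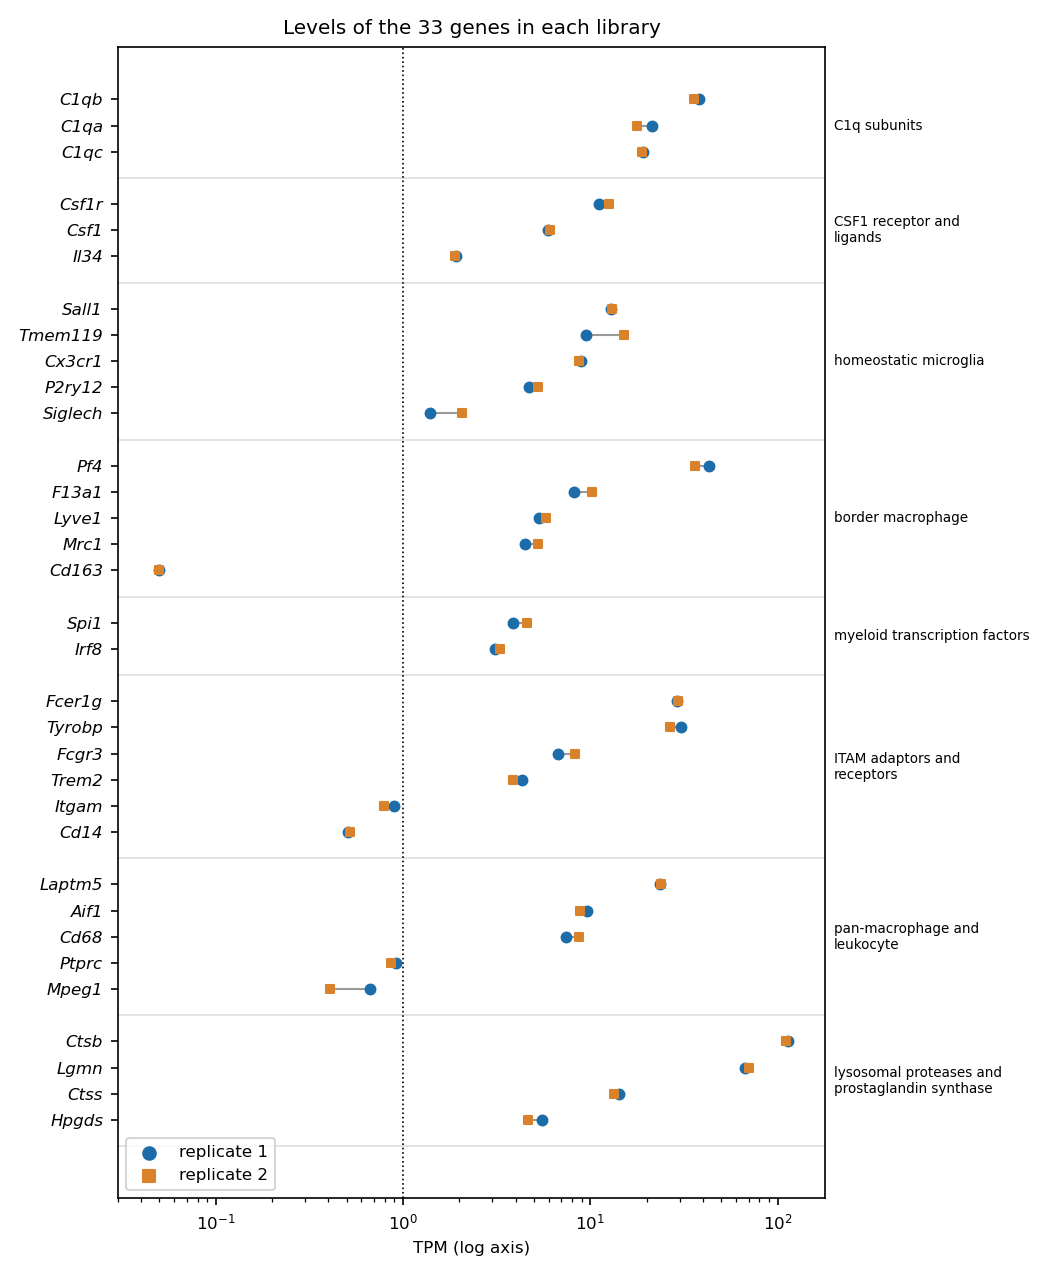
Level of each of the 33 genes in TPM on a log axis, with a circle for replicate 1 and a square for replicate 2, grouped by role. The dotted line marks the detection level of 1 TPM, and 28 genes lie above it in both libraries, from Siglech at the low end to Ctsb at 113 and 110.2 TPM.

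The myeloid transcription factor genes were both detected at low levels. Spi1 had 3.89 TPM in replicate 1 and 4.62 TPM in replicate 2. Irf8, which encodes a partner of PU.1 that microglia need, had 3.11 and 3.3 TPM. Irf8 lay below Spi1 in both libraries, at a ratio of 0.799 in replicate 1 (95% counting interval 0.631 to 1.02) and 0.714 in replicate 2 (0.534 to 0.96). The interval of replicate 1 includes equal levels. From posterior-mean TPM, Irf8 had 4.38 and 4.63 TPM and Spi1 had 4.32 and 5.1 TPM, so that Irf8 lay slightly above Spi1 in replicate 1, and the mean log2 ratio was -0.06 in place of -0.40.

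PU.1 binds a purine-rich box with the letters GAGGAA, so the promoters of the genes were read for it. RefSeq promoter entries (GRCm38.p6) were matched for 24 of the 33 genes. In the 250 bases before the start site, 14 of the 24 genes (58.3%) held GAGGAA or its reverse complement TTCCTC, against 25.9% of 27025 genes with an entry. The box contains the GGAA core shared by other ETS factors, and a match describes the letters only. Mrc1 had 3 matches, Itgam 2, and Aif1, C1qb, C1qc, Cd68, Ctss, F13a1, Fcgr3, Hpgds, Laptm5, Pf4, Ptprc and Trem2 had 1 each. The remaining genes with an entry had none in this window. They were P2ry12, Sall1, Siglech and Cx3cr1 of the microglial markers, Cd163 of the border markers, and Csf1, Fcer1g, Irf8, Lgmn and Mpeg1. The microglial marker Tmem119 and the border marker Lyve1 were among the 9 genes without an entry. Sequences are shown for genes of different roles, complement, receptor, integrin and border macrophage chemokine, with P2ry12 as an example without a match. They run 5′ to 3′ on the strand of the gene and end just before the RefSeq start site, and capitals mark the box on either strand. For P2ry12 the window stops at 59262986, while the GENCODE gene begins at 59262871 on the minus strand. The bases between were not read.
C1qb, chr4:136886201-136886450, strand -: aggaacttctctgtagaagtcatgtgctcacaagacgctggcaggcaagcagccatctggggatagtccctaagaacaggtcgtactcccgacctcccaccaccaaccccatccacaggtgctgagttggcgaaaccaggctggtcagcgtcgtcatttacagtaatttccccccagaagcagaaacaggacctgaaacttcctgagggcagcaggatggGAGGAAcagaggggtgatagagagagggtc
Trem2, chr17:48346151-48346400, strand +: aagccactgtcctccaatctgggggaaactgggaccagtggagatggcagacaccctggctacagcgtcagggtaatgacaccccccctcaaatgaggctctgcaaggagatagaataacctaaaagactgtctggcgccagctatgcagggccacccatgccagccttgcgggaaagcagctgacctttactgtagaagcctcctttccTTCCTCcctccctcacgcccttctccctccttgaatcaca
Itgam, chr7:128062390-128062639, strand +: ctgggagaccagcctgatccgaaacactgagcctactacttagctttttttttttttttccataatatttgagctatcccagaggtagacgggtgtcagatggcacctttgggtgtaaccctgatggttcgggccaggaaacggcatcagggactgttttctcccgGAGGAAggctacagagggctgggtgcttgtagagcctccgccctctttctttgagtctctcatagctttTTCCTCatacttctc
Pf4, chr5:90772185-90772434, strand +: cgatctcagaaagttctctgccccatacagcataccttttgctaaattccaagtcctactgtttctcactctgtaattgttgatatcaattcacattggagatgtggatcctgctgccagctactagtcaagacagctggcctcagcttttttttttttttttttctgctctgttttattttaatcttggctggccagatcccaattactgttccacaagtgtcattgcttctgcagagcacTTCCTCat
P2ry12, chr3:59262986-59263235, strand -: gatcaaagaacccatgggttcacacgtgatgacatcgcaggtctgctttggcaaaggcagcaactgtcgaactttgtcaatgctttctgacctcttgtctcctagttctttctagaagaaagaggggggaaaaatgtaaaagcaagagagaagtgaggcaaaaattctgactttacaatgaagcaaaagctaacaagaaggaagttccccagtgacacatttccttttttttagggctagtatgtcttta

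The growth factor receptor gene Csf1r, whose product keeps microglia alive, had 11.1 and 12.6 TPM in replicates 1 and 2. Its ligand genes were lower. Csf1 had 5.94 and 6.06 TPM, and Il34, the ligand made by neurons of the mature brain, had 1.93 and 1.9 TPM. Il34 therefore lay below Csf1 in both libraries, by a log2 ratio of -1.64 ± 0.04 (SD, n = 2), with a ratio of 0.325 (95% counting interval 0.236 to 0.437) in replicate 1 and 0.314 (0.213 to 0.45) in replicate 2. Csf1r exceeded Csf1 by a log2 ratio of 0.98 ± 0.1. With 2 libraries, an exact two-sided permutation test of a difference between 2 genes cannot give a p below 0.5, so these ratios are given with their spread and counting intervals only. Exons of Csf1r share 873 bases with Hmgxb3 on the opposite strand, at 9.91 and 10.7 TPM, and the handling of strand is not given in the sources used here. Reads of that stretch therefore cannot be assigned with certainty.

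The ITAM adaptor genes were higher than the genes of their receptors. Tyrobp, which encodes the adaptor DAP12, had 30.3 TPM in replicate 1 and 26.6 TPM in replicate 2, and Fcer1g, the gene of the common Fc receptor gamma chain, had 29.1 and 29.4 TPM. Neither exceeded the other in both libraries, with a log2 ratio of Fcer1g over Tyrobp of -0.06 in replicate 1 and 0.15 in replicate 2. Trem2, the lipid receptor that pairs with DAP12, had 4.34 and 3.87 TPM, a ratio to Tyrobp of 0.143 (95% counting interval 0.114 to 0.178) and 0.146 (0.107 to 0.196). Fcgr3, a low-affinity Fc receptor gene, had 6.73 and 8.26 TPM and a ratio to Fcer1g of 0.232 (0.194 to 0.277) and 0.281 (0.228 to 0.347). All of these intervals lie below equal levels.

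Other surface receptors lay below the detection level. Itgam, the gene of the CD11b chain of complement receptor 3, had 0.9 and 0.79 TPM from 76 and 50 reads. From posterior-mean TPM, Itgam lay above the detection level, at 1.39 and 1.61 TPM. Of its 5024 exon bases, 3450 are shared with the annotated gene Gm49368 on the same strand. Gm49368 has no level of its own among the deposited genes. Its transcript Gm49368-202 was counted under Itgam, with 1 read in replicate 1 and 0 in replicate 2. Other Itgam reads may include reads of Gm49368 as well. A transcript with no name in GENCODE M21 took 75 of the reads in replicate 1 and 24.0 in replicate 2, and Itgam-201 took 0 and 26.0. Cd14, the endotoxin co-receptor gene, had 0.51 and 0.52 TPM from 17 and 11 reads.

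The 3 genes of complement C1q, the recognition protein of the classical pathway, were detected in both libraries and lie side by side on the minus strand of chromosome 4 (GRCm38/mm10). C1qb is at chr4:136880129-136886187, C1qc at chr4:136889804-136893065 and C1qa at chr4:136895917-136898803, and no other annotated gene shares their exons. C1qb had 37.9 TPM in replicate 1 and 36.0 TPM in replicate 2. C1qa had 21.4 and 17.65 TPM, and C1qc had 19.1 and 18.8 TPM. C1qb stood above its neighbours in both libraries, while C1qa and C1qc overlapped. The ratio of C1qa to C1qb was 0.565 (95% counting interval 0.503 to 0.634) in replicate 1 and 0.491 (0.419 to 0.573) in replicate 2, and that of C1qc to C1qb was 0.504 (0.45 to 0.565) and 0.523 (0.452 to 0.604).

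All 5 homeostatic microglia genes were detected. Sall1, a transcription factor gene of microglia that neural progenitors also express, had 12.9 TPM in replicate 1 and 13.1 TPM in replicate 2. Tmem119, a transmembrane protein gene, had 9.49 and 15.2 TPM, the widest gap in absolute level among the 5. Cx3cr1, the fractalkine receptor gene, had 8.95 and 8.71 TPM. P2ry12, the purine receptor gene that guides microglial processes, had 4.68 and 5.25 TPM. Siglech, a sialic acid-binding lectin gene, had 1.4 and 2.06 TPM from 54 and 51 reads. Against P2ry12, the log2 ratio was 1.39 ± 0.1 for Sall1, 1.27 ± 0.36 for Tmem119, 0.83 ± 0.14 for Cx3cr1 and -1.54 ± 0.27 for Siglech (SD, n = 2).

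Of the 5 border macrophage genes, 4 were detected. Pf4, a chemokine gene that megakaryocytes also express, was highest, at 43.1 TPM in replicate 1 and 36.4 TPM in replicate 2. F13a1, the clotting factor XIII chain gene, had 8.2 and 10.2 TPM. Lyve1, the hyaluronan receptor gene shared with lymphatic endothelium, had 5.33 and 5.81 TPM, and Mrc1, the mannose receptor gene, had 4.48 and 5.26 TPM. Cd163, the haemoglobin scavenger receptor gene, stood far below the rest at 0.05 TPM in each library, from 5 and 3 reads. Its ratio to Mrc1 was 0.0112 (95% counting interval 0.00371 to 0.0269) in replicate 1 and 0.00951 (0.0019 to 0.0272) in replicate 2. Against Mrc1, the log2 ratio was 3.03 ± 0.34 for Pf4, 0.91 ± 0.06 for F13a1 and 0.2 ± 0.08 for Lyve1 (SD, n = 2).

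The homeostatic list had a median of 8.95 TPM in replicate 1 and 8.71 TPM in replicate 2, and the border list had 5.33 and 5.81 TPM. In both libraries these medians are the levels of single genes, Cx3cr1 for the homeostatic list and Lyve1 for the border list. How much of the Cx3cr1 level comes from microglia was not tested. The log2 ratio of the medians, homeostatic over border, was 0.75 and 0.58 in the libraries, or 0.67 ± 0.12 (SD, n = 2). The sums went the other way, at 37.4 and 44.3 TPM for the homeostatic list and 61.2 and 57.7 TPM for the border list, with Pf4 the largest member of the border sum. P2ry12 and Mrc1 were not told apart beyond counting error, with a ratio of P2ry12 to Mrc1 of 1.04 (95% counting interval 0.889 to 1.23) in replicate 1 and 0.998 (0.821 to 1.21) in replicate 2. Without Sall1 the log2 ratio of the medians was 0.31, and without Lyve1 it was 0.33. With both Sall1 and Tmem119 left out, P2ry12 would be the homeostatic median, below the border median in both libraries. The size and sign of the ratio therefore rest on which of the 5 genes are kept. The markers of other cells that carry these genes are given with the further lists, and their part in the ratio was not tested.

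**Figure D2:**
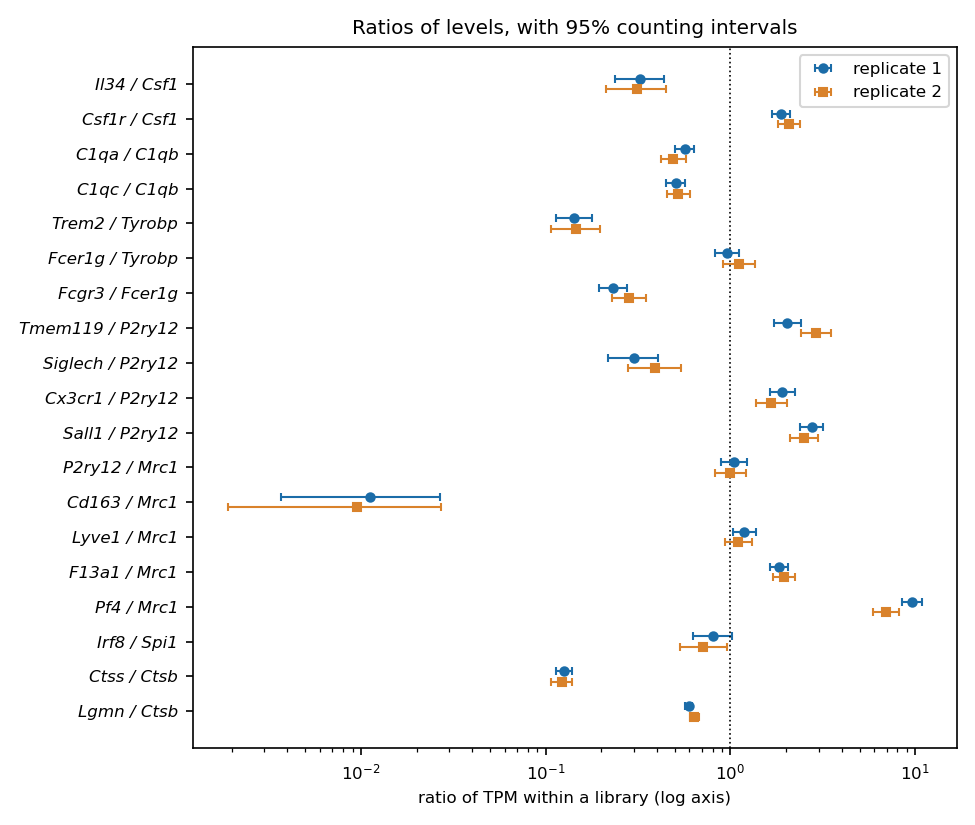
Ratios of TPM between 19 pairs of genes, on a log axis, with a circle for replicate 1, a square for replicate 2 and bars for 95% counting intervals. In 9 of the 19 pairs the levels differed at least 2-fold in the same direction in both libraries, and the P2ry12 to Mrc1 ratio sits at the dotted line of equal levels.

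General macrophage and leukocyte genes spread widely. Laptm5, a lysosomal membrane protein gene of blood cells, had 23.5 TPM in replicate 1 and 23.8 TPM in replicate 2. Aif1, which encodes the microglial stain IBA1, had 9.63 and 8.76 TPM, and Cd68, a lysosomal glycoprotein gene of phagocytes, had 7.43 and 8.66 TPM. Ptprc, the pan-leukocyte gene of CD45, had 0.92 and 0.86 TPM from 88 and 52 reads. Mpeg1, the gene of a pore-forming protein of macrophages, had 0.67 and 0.41 TPM. The first 3 of these genes were detected in both libraries and the last 2 lay below 1 TPM in both. From posterior-mean TPM, Ptprc lay above 1 TPM in both, at 1.48 and 1.65 TPM.

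Among the protease genes, Ctsb had 113 TPM in replicate 1 and 110.2 TPM in replicate 2 and Lgmn had 67.1 and 70.3 TPM. Cathepsin B and legumain are expressed by many cell types. Exons of Ctsb share 774 bases with Fdft1 on the opposite strand, a gene at 111 and 119 TPM, so a share of its reads is uncertain. Ctss, the gene of cathepsin S, a protease of antigen-presenting cells, had 14.2 and 13.4 TPM and a ratio to Ctsb of 0.126 (95% counting interval 0.114 to 0.139) and 0.122 (0.107 to 0.139). Hpgds, the gene of haematopoietic prostaglandin D synthase, had 5.51 and 4.64 TPM.

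The transcript tables divide each gene among its annotated transcripts. Of the 33 genes, 9 had 1 transcript, and 24 had several. Of 21 detected genes with several transcripts, 16 gave the largest isoform percent to the same transcript in both libraries, or 76.2%, against 89.3% of 10167 detected genes with several transcripts. The 5 genes whose leading transcript differed were Csf1, Trem2, Laptm5, Aif1 and Hpgds. Trem2-201 held 82.7% of Trem2 in replicate 1 and 40.9% in replicate 2, while Trem2-202 held 13.4% and 55.2%. These shares rest on 80.3 and 22.4 reads for Trem2-201 and 12.6 and 29.3 reads for Trem2-202, with a posterior SD of 7.90 and 7.75 reads for Trem2-201.

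Short transcripts without a coding frame took a large part of several genes. For Hpgds, the retained-intron transcript Hpgds-202 held 51.9% of the gene's TPM in replicate 1 and 24.3% in replicate 2, from 20.8 and 5.19 reads. The coding transcript Hpgds-201 had 2.65 and 3.51 TPM from 202 and 170 reads. The gene's TPM was therefore lower in replicate 2 while its coding transcript was higher. For Aif1, the retained-intron transcript Aif1-205 held 45.65% and 53.0%, from 36.1 and 24.2 reads. For Il34, the noncoding transcript Il34-205 held 46.9% and 35.2%, which leaves the coding Il34-201 at 1.02 and 1.23 TPM. In Csf1r, by contrast, both transcripts are coding, and Csf1r-202 held 81.5% and 84.4%. Summed over the 33 genes, coding transcripts held 503 TPM on average, and 28 genes were detected from them alone.

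**Figure D3:**
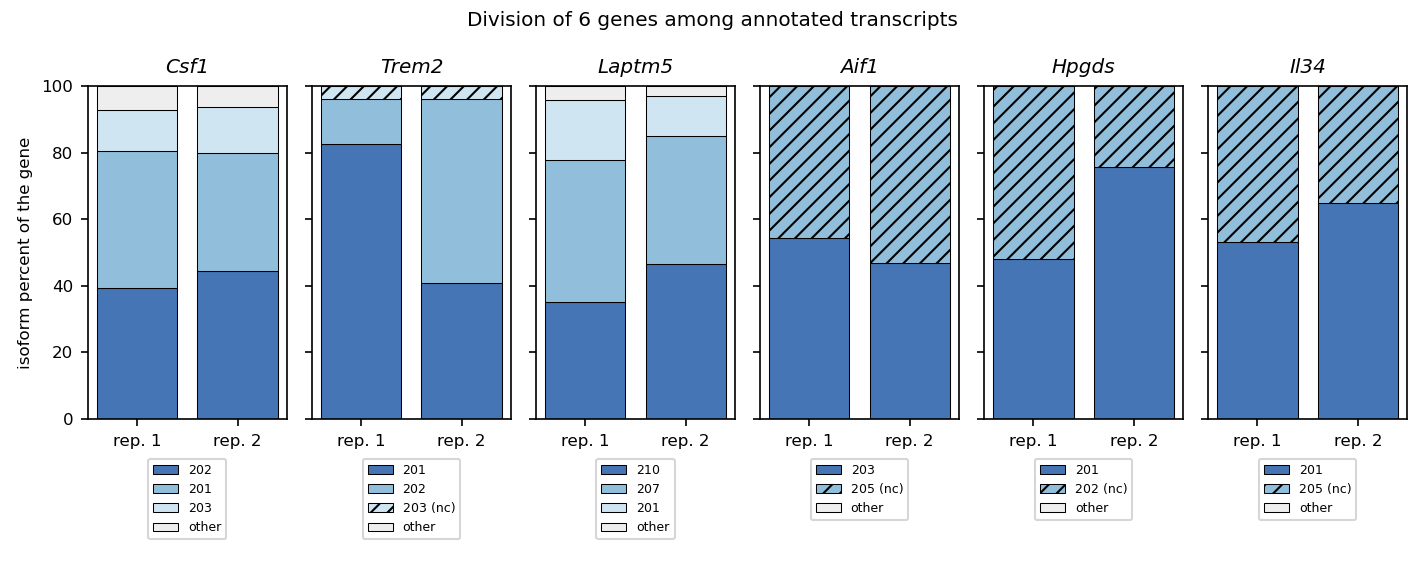
Isoform percent of Csf1, Trem2, Laptm5, Aif1, Hpgds and Il34 in replicate 1 and replicate 2, stacked to 100%, with transcripts named by number, hatching for transcripts without a coding frame (nc) and grey for all others. The leading transcript differs between the libraries in the first 5 genes, and Trem2-201 takes 82.7% in replicate 1 and 40.9% in replicate 2.

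How far the libraries differed was measured against counting noise, which compares these libraries and not conditions. Of the 17428 genes that averaged at least 10 reads, 2.25% were called, meaning a 2-fold or larger ratio with an adjusted p below 0.05 (two-sided exact binomial test, Benjamini-Hochberg adjustment). Of the 33 genes, 32 could be tested and 0 were called. At a 1.5-fold limit 1 was called, Tmem119, against 4.07% of all genes tested. With no limit on the fold, 5 of the 32 passed the adjusted p, against 24.6% of all genes tested, and 6 had an unadjusted p under 0.05, against 34.6% of all genes tested. Of the 32 genes, 13 were nominally higher and 19 lower in replicate 2, while scaling to the spike-ins gave 21 higher and 11 lower. The median size of the log2 ratio was 0.11 for the 32 genes and 0.14 for all genes tested.

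The 5 genes were Tmem119 and F13a1, higher in replicate 2, and Pf4, C1qa and Ctsb, lower in replicate 2. Log2 ratios are replicate 2 over replicate 1 with the counting SE. Tmem119 had 460 reads in replicate 1 and 457 in the shallower replicate 2, a log2 ratio of 0.59 ± 0.1 with an adjusted p of 2.25e-08 by the exact binomial test. F13a1 followed with 0.26 ± 0.08 and an exact adjusted p of 0.011. Pf4 had -0.3 ± 0.11 and an exact adjusted p of 0.0302, C1qa -0.34 ± 0.12 and 0.0172, and Ctsb -0.1 ± 0.02 and 0.000112. Scaled to the spike-ins, which shifts the median of all genes to 0.09, Pf4, C1qa and Ctsb no longer passed, with exact adjusted p of 0.127, 0.0797 and 0.819, while Csf1r passed at 0.21 ± 0.07 and 0.00763. Tmem119 and F13a1 were higher in replicate 2 under every scaling tried.

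Tmem119 is also expressed by osteoblasts, so 12 osteoblast and cartilage genes, chosen after its values were seen, were set beside it. Summed, they held 91.1 and 123 TPM in replicates 1 and 2, of which the cartilage collagen gene Col2a1 held 50.7 and 68.2 TPM. The osteoblast genes Alpl, at 5.65 and 5.39 TPM, and Sp7, at 0.38 and 0.52 TPM, did not pass the exact binomial test, with adjusted p of 0.481 and 0.566. Runx2, also an osteoblast gene, had 0.43 and 1.72 TPM. It passed the same test, higher in replicate 2, at a log2 ratio of 0.99 ± 0.31 and an adjusted p of 0.00915. Of the 10 that could be tested, 6 were higher in replicate 2 and 1 was lower at an exact adjusted p under 0.05, a threshold that 24.6% of all genes tested passed. The 2-fold limit was passed by the bone matrix gene Ibsp, at 0.16 and 1.2 TPM, and by the cartilage matrix gene Comp, at 1.31 and 0.42 TPM, against 1.46% of all genes called higher and 0.792% called lower. The cartilage collagen gene Col9a1 had 8.96 and 16.5 TPM, and the osteocalcin gene Bglap had 0.35 TPM in replicate 1 and 0 assigned reads in replicate 2, with uncertain assignment. The part of these cells in the Tmem119 difference was not tested.

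**Figure D4:**
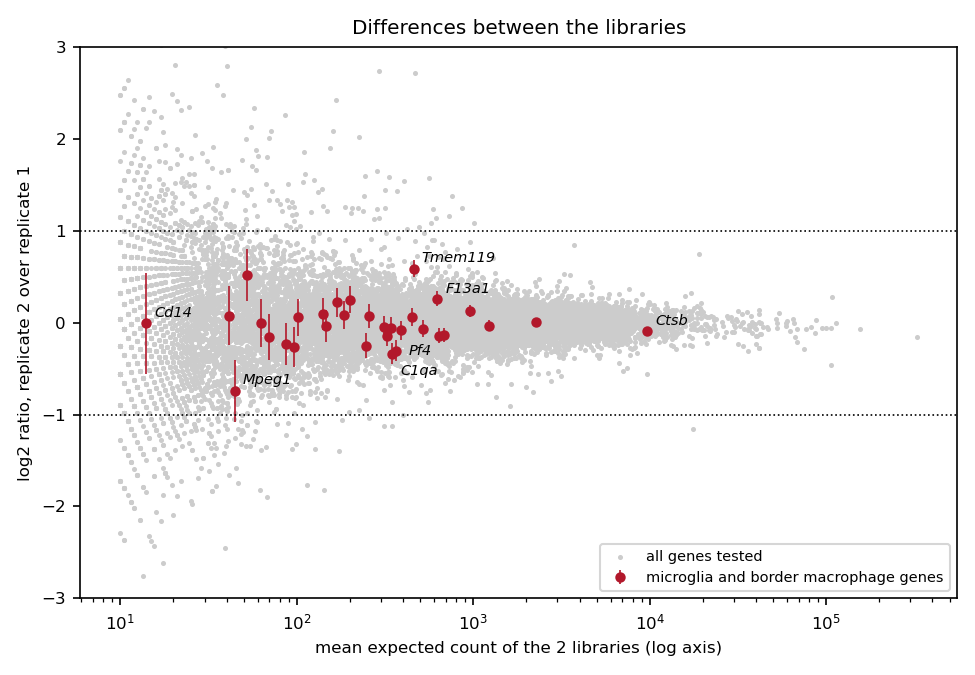
Log2 ratio of replicate 2 over replicate 1 against the mean count on a log axis, with grey points for the 17428 genes tested and red points with counting SE for 32 of the 33 genes. The axis ends at a log2 ratio of 3 in either direction, which leaves 34 grey points outside. All red points lie between the dotted 2-fold lines, and Tmem119 at 0.59 is the highest of those that passed the adjusted p.

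Other genes of the same pathways came from further lists, read at the same level of 1 TPM in both libraries. Of 16 further microglia genes, 13 were detected. Golm1 had 36.9 and 40.7 TPM in replicates 1 and 2 and the integrin gene Itgb5 had 16.0 and 17.2 TPM, both of them shared with other tissues. The lowest was Csf3r at 0.38 and 0.95 TPM. Of 14 further border macrophage genes, 8 were detected, led by genes that other cells of the tissue also express, Ednrb at 108 and 103 TPM, Dab2 at 23.1 and 28.8 TPM and Colec12 at 19.2 and 21.4 TPM. Cd209g had 0 assigned reads, with a posterior SD above 0, so its assignment is uncertain.

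Genes tied to activated and axon-tract microglia were detected for 9 of 14. Fabp5 at 654 and 637 TPM, Apoe at 327 and 307 TPM and Cd63 at 205 and 215 TPM were highest and are expressed by neural and other cells. The integrin gene Itgax, a marker of activated microglia, had 0.01 and 0.09 TPM from 1 and 5 reads. Of 14 lineage regulators, 10 were detected, with the TGF-beta receptor gene Tgfbr1 at 31.9 and 33.6 TPM and Mef2c at 10.2 and 14.7 TPM among the highest. The lowest was Myb, a factor of definitive haematopoiesis that yolk sac macrophages do not need, at 0.35 and 0.44 TPM. Ikzf1 was called higher in replicate 2, against 1.46% of all genes tested in that direction, from 33 and 46 reads at a log2 ratio of 1.07 ± 0.33 and an exact adjusted p of 0.00755.

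All 10 genes for ligands of microglial receptors were detected. Apoe, a ligand of Trem2, was highest, and Cd200, which restrains microglia through its receptor, had 165 and 157 TPM. Cd47, the ligand of Sirpa, had 67.8 and 68.2 TPM, and the chemokine gene Ccl2 was lowest at 1.98 and 2.37 TPM. Of 12 complement partners, 7 were detected, with the chaperone gene Calr at 575 and 739 TPM, the C1 inhibitor gene Serping1 at 27.8 and 27.5 TPM and Cr1l at 23.4 and 27.5 TPM highest. C4b had 0 assigned reads, but it has the near-identical copy C4a and its assignment is uncertain. The proteases that C1q binds were low beside it, a comparison chosen after the values were seen. C1ra had 0.12 and 0.11 TPM, and C1s1 had 0.3 and 0.23 TPM.

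Of 12 Fc receptor, ITAM and ITIM partners, 3 were detected in both libraries. They were the inhibitory receptor gene Sirpa at 18.2 and 18.6 TPM, the lipid phosphatase gene Inpp5d at 2.64 and 5.3 TPM, and Syk, the kinase recruited to ITAMs, at 1.15 and 1.33 TPM. Inpp5d rested on 206 and 135 reads, a log2 ratio of counts of -0.01. Cd300a had 2.04 TPM in replicate 1 and 0.88 TPM in replicate 2, below the detection level there. Sirpb1a had 0 assigned reads, with a posterior SD above 0, so its assignment is uncertain. All 14 endolysosomal genes were detected, from the cystatin gene Cst3 at 395 and 390 TPM, Ctsd at 221 and 217 TPM and Lamp1 at 209 and 219 TPM down to Ctsc at 13.7 and 15.8 TPM. By the exact binomial test with the 2-fold limit, 0 genes of the complement, Fc receptor and endolysosomal lists were called between the libraries. Without the limit, 3 of 10 complement partners, 1 of 9 Fc receptor partners and 6 of 14 endolysosomal genes passed the adjusted p, against 24.6% of all genes tested in either direction. All 6 of these endolysosomal genes were lower in replicate 2, at log2 ratios from -0.35 for Lyz2 to -0.07 for Cst3. Scaling to the spike-ins, which shifts the median of all genes to 0.09, was not tried on this list.

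Some of the 33 genes are also known from other blood and vessel cells, whose markers were read the same way. Of 8 megakaryocyte and platelet genes, 3 were detected, Gp1bb at 11.7 and 8.22 TPM, Itga2b at 4.7 and 4.37 TPM and Ppbp at 2.16 and 2.42 TPM, and Gp6 was lowest at 0.04 and 0.07 TPM. Their summed level, 20.7 TPM in replicate 1 and 17.2 TPM in replicate 2, lay below Pf4 alone in each library. Gp1bb was the largest member of this sum in both libraries. Beside it, chosen after the values were seen, Gp9 had 0.81 and 0.78 TPM and Gp1ba 0.34 and 0.11 TPM. Whether the Gp1bb reads come from platelet lineage cells was not tested. Gp1bb was lower in replicate 2, at a log2 ratio of -0.60 ± 0.13 and an exact adjusted p of 2.31e-05. It was the only 1 of the 7 platelet genes tested to pass, against 24.6% of all genes tested. Itga2b, at -0.19 ± 0.21, and Ppbp, at 0.11 ± 0.32, did not pass. Of 6 lymphatic endothelial genes, 4 were detected, and Pdpn at 48.1 and 59.0 TPM, Reln at 33.8 and 36.6 TPM and Prox1 at 9.22 and 11.3 TPM are also neural genes. Stab2 had 0.18 and 0.13 TPM from 8 and 3 reads. Summed, the 6 genes held 93.9 and 111 TPM. Of the 5 lymphatic genes tested, 2 were higher in replicate 2 at an exact adjusted p under 0.05, Pdpn and Prox1, against 24.6% of all genes tested in either direction. The part of these cells in the levels of Pf4, F13a1 and Lyve1 was not tested.

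Other leukocyte lists differed in level. Summed, the neutrophil list held 42.5 and 35.5 TPM in replicates 1 and 2, beside 37.4 and 44.3 TPM for the homeostatic microglia list. The monocyte list held 2.38 and 2.33 TPM and the lymphocyte list 0.66 and 0.51 TPM. Of 8 neutrophil genes, 5 were detected, with S100a8 at 15.7 and 13.3 TPM, Prtn3 at 11.1 and 10.9 TPM and S100a9 at 9.08 and 6.08 TPM highest. The lowest, Elane, had 10 reads in replicate 1 and 0 in replicate 2, where 0 allows up to 0.255 TPM (3 reads, counting error only). Of 5 monocyte genes, 1 was detected, Plac8 at 1.65 and 1.31 TPM. Ccr2 had 0.32 and 0.52 TPM, Ly6c2 had 0.14 and 0.37 TPM with uncertain assignment, and Chil3 had 0 reads, which allows up to 0.224 and 0.353 TPM. Of 8 lymphocyte genes, 0 were detected. Cd79a had 0.23 and 0.26 TPM, Cd3e 0.13 and 0.05 TPM and Cd3g 0.1 and 0.08 TPM, and Ms4a1 had 0 reads, which allows up to 0.0476 and 0.0751 TPM.

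None of 7 mast cell genes was detected in both libraries, and 3 had 0 reads in both, among them Mrgprb1, for which that allows up to 0.083 and 0.131 TPM. Summed, they held 0.39 and 2.21 TPM. The protease gene Cpa3, the only 1 of the 7 that could be tested, had 6 and 23 reads, or 0.2 and 1.19 TPM. It was called higher in replicate 2 at a log2 ratio of 2.45 ± 0.64 and an exact adjusted p of 0.000291. Over all genes tested, 1.46% were called higher. Ms4a2 had 0.14 and 0.3 TPM and Tpsb2 had 0.05 and 0.36 TPM. Fcer1g and Hpgds are mast cell genes too, and the part of mast cells in their levels was not tested.

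**Figure D5:**
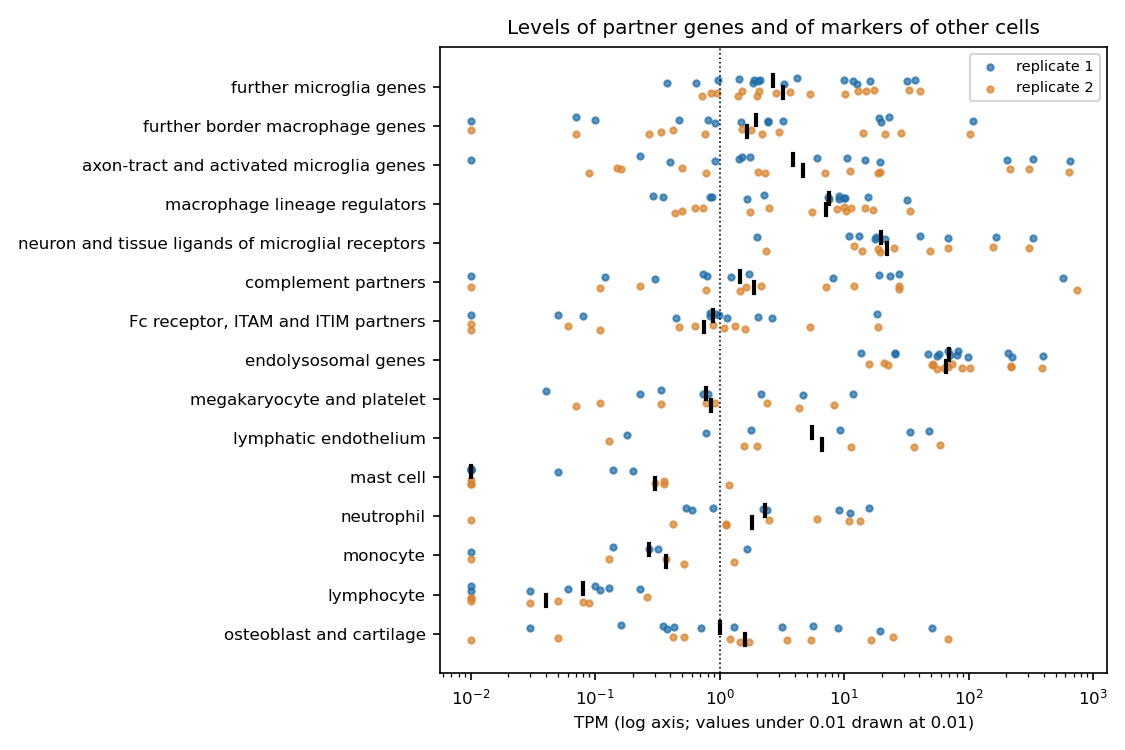
TPM of each gene of the further lists in replicate 1 (blue) and replicate 2 (orange) on a log axis, with black bars for list medians and the dotted line at 1 TPM. Endolysosomal genes lie highest by median, at 69.1 and 65.9 TPM, and lymphocyte genes lowest or next to lowest, at 0.08 and 0.04 TPM.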

How the data were processed

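The authors deposited 1 gene table and 1 transcript table per library, on mm10 with GENCODE M4, per the text deposited with the tables. The sources used here give no aligner, quantifier or handling of strand. Per the file headers, the authors' tables hold expected counts (estimated reads), which were rounded for tests. The deposited TPM cover every feature, with spike-ins at 13.0% and 12.6% in replicates 1 and 2. The authors also give an isoform percent (a transcript's part of its gene's TPM), a score in reads (the posterior standard deviation of a count) and an effective length in bases.

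Identifiers, stripped of version, were given GENCODE M21 symbols for 42462 of 43346 mouse genes. Other features were not tested. Mouse genes held 32151162 and 21084234 reads. The members and lists were chosen with earlier results of these data known. All 33 members are named, and of each further list the 3 highest genes by mean TPM, the lowest, and any gene called between the libraries. Of the genes this rule names, 2 are not reported here.

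Counts of the libraries were compared by an exact binomial test, two-sided, against TMM effective library sizes (edgeR 4.0.16, R 4.3.3), with Benjamini-Hochberg adjustment over genes averaging at least 10 reads. The test was checked on simulated data. Log2 ratios add 0.5 to each count, and those of gene pairs 0.01 TPM. The common biological coefficient of variation was 9.23%. Counting intervals are exact binomial at 95%, and a level at 0 reads is bounded at 3 reads. Both cover counting error only, since reads without molecular identifiers are not independent molecules. Alternatives used DESeq2 1.42.0 size factors, library or spike-in totals, other limits on counts and TPM, posterior-mean TPM, and TPM rescaled without spike-ins. Computation used Python 3.11.15 with SciPy 1.17.1; pandas 2.3.3 and NumPy 2.4.6 handled tables, and figures were drawn in matplotlib 3.10.9.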

Additional observations from a re-analysis of the deposited data

How the results depend on the processing

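The number of genes detected in both libraries was 28 and ranged from 26 at 2 TPM to 31 at 0.5 TPM, and was 28 to 28 with either library left out. It was 30 from posterior-mean TPM, which put Ptprc and Itgam above 1 TPM. The log2 ratio of the list medians, homeostatic over border, kept its sign under every alternative run, but Sall1 and Tmem119 were left out only singly. It was 0.16 as a mean of log2(TPM + 1), 0.31 without Sall1, 0.31 without Tmem119 (chosen after seeing the data), 0.33 without Lyve1 and 0.86 without Pf4 and F13a1, and 0.58 to 0.75 with either library left out. With both Sall1 and Tmem119 left out, the homeostatic median would be that of P2ry12, at 4.68 and 5.25 TPM in replicates 1 and 2. That lies below the border median of 5.33 and 5.81 TPM, so the sign would reverse (chosen after seeing the data). The log2 ratio of the list sums was -0.71 in replicate 1 and -0.38 in replicate 2. These changes follow from which genes and which summary are kept. The count of called genes, 0 by the exact binomial test, was also 0 with DESeq2 size factors, library totals, spike-in totals, no count filter and a count limit of 50, and was 1, Tmem119, at 1.5-fold, where 4.07% of all genes were called. The same leading transcript was found in 18 genes from the posterior mean and in 17 of 22 genes with 50 or more reads. At least 2-fold pairs numbered 8 to 11 under the alternatives, 9 to 11 with either library left out. The summed level of 515 TPM was 510 TPM from the posterior mean, 591 TPM over mouse genes without spike-ins, 503 TPM from coding transcripts and 335 TPM without Ctsb and Lgmn (the last 2 alternatives chosen after seeing the data), and 513 to 517 TPM with either library left out. Of 38 values of single pairs from the posterior mean or another pseudocount, 27 stayed within the SD of the libraries and 11 moved by more, with 0 changes of sign. With a library left out, the sign differed in 2 pairs, Fcer1g over Tyrobp (-0.06 in replicate 1 alone) and P2ry12 over Mrc1 (-0.0027 in replicate 2 alone). For the pairs the cause was not tested. No paired analysis was possible because the series holds 1 group. Depth limits the genes with few reads, and Cd163, with 5 and 3 reads, was too low to be tested between the libraries.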
